A study of Mus musculus with 18 samples.

Results

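The Hox genes of the HoxA, HoxB, HoxC and HoxD clusters were described in RNA-seq libraries from primary mouse embryonic fibroblasts (MEFs), the mixed adherent cells that grow out of minced embryos. Members were the rows of the count table whose Ensembl identifier carries a symbol made of Hox, a cluster letter from a to d and a paralog number. They numbered 39 of the 51912 rows, with 11 in HoxA, 10 in HoxB, 9 in HoxC and 9 in HoxD. Of these, 35 passed the filter on low counts and were tested among 15710 genes. Hoxb1, Hoxb13, Hoxc12 and Hoxd1 did not pass, with at most 1, 7, 13 and 8 counts in any of the 18 libraries.

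The libraries came from cells of 6 genotypes with 3 libraries each: Pole4+/+ or Pole4-/-, each combined with Trp53+/+, Trp53+/- or Trp53-/-. Pole4 encodes an accessory subunit of DNA polymerase epsilon, and Trp53 encodes the tumour suppressor TRP53. All cells shared the C57BL/6 background, an embryonic age of E13.5, passage 1 and 5% oxygen, and the alleles were constitutive. Heads and internal organs such as heart and liver had been removed, so trunk, limb and tail tissue remained. The labels do not say that the libraries of a genotype came from separate embryos. Each Pole4-/- genotype held libraries of both sexes, so its 3 libraries did not all come from 1 embryo. The libraries of each Pole4+/+ genotype were of 1 sex, and the p-values below measure the spread between libraries, whatever its source.

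Hox genes encode homeodomain transcription factors that give cells their position along the body and limb axes. They lie in 4 clusters, in an order that matches where they are expressed: low-numbered paralogs act in the hindbrain and neck, middle ones in the thorax, and the highest ones in the sacrum, tail, genital tubercle and distal limb. Fibroblasts keep much of this pattern in culture, so a pool of MEFs carries the patterns of the regions it came from. In bulk RNA, fewer cells that express a gene and less RNA per cell cannot be told apart.

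Promoter windows were available from RefSeq (GRCm38.p6) for 22 of the 39 members. The 250 bases upstream of the annotated start are shown for 4 genes to which the results below return. Hoxb4 and Hoxa5 stand for the low and middle paralogs that were lower without Trp53, and Hoxa13 and Hoxd13 for the distal paralogs that varied together between libraries. Capitals mark the TATA element TATAAA, the CAAT box CCAAT and the GC box GGGCGG on either strand, and overlapping matches run together.
Hoxb4, chr11:96318017-96318266, strand +: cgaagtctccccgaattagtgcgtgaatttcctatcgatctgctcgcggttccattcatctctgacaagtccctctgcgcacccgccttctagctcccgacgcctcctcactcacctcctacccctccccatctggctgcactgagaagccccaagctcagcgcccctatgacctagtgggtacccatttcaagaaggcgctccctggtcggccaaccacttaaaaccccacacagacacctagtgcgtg
Hoxa5, chr6:52204588-52204837, strand -: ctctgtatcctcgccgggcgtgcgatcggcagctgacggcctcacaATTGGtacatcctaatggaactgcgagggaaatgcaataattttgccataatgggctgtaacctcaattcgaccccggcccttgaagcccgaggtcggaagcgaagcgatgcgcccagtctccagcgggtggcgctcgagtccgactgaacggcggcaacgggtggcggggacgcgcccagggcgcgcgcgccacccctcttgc
Hoxa13, chr6:52260881-52261130, strand -: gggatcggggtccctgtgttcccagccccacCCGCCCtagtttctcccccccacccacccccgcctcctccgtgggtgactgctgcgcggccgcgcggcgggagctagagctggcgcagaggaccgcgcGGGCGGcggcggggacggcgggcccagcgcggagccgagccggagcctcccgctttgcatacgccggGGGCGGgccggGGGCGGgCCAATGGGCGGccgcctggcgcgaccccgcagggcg
Hoxd13, chr2:74667975-74668224, strand +: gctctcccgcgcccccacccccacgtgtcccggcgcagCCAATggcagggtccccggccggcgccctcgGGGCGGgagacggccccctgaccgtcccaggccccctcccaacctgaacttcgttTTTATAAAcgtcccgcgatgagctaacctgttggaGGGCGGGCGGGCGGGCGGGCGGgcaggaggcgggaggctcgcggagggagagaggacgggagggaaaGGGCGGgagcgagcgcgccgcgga

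None of the 4 windows overlapped an annotated exon. Hoxb4 held none of the motifs, and Hoxa5 held 1 CCAAT. Hoxa13 held 1 CCAAT and 5 GGGCGG matches, and Hoxd13 held 1 CCAAT, 7 GGGCGG and 2 TATAAA matches that overlap on opposite strands. Over all 24 windows of the 22 genes, 14 had CCAAT, 10 had GGGCGG and 4 had TATAAA, beside 33.8%, 32.7% and 12.4% of all 32851 mouse promoter windows. TGATNNAT, a form bound by Hox proteins with Pbx partners, was found in 4 of the 24 and in 7.68% of all windows, and the decamer bound by TRP53 in 3 of the 24 and in 7.13%. None of the 4 windows shown held either of these. The Hox windows held a median of 12.5 CG dinucleotides against 6 over all windows. These matches describe the letters in the windows and were not tied to any value below.

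Library totals ran from 9535971 to 35319918 counts, of which 1977 to 9896 fell on Hox genes, and ribosomal RNA took 0.968% to 42.5%. The targeted genes followed the labels, with Trp53 in Pole4-/- Trp53+/+ below the wild-type range. Trp53 stood at 86.6 to 96.1 CPM (counts per 1000000, with libraries scaled by the trimmed mean of M values) in Pole4+/+ Trp53+/+, at 64.2 to 72.7 CPM in Pole4-/- Trp53+/+, at 48.4 to 59.6 CPM in the 6 Trp53+/- libraries and at 8.65 to 12.1 CPM in the 6 Trp53-/- libraries. Pole4 stood at 9.26 to 11.99 CPM in the Pole4-/- libraries and at 14.2 to 26.4 CPM in the others. By Xist and Ddx3y, the Pole4+/+ Trp53+/+ and Pole4+/+ Trp53-/- libraries were female and the Pole4+/+ Trp53+/- libraries male, while the Pole4-/- genotypes were mixed. One library stood apart: Pole4+/+ Trp53-/- library 1 held the highest level of its genotype for 20 of the 25 tested members of paralog groups 1 to 9 and for 0 of the 10 of groups 10 to 13. It also held the lowest Pole4 level of any Pole4+/+ library (14.2 CPM) and 2.76 CPM of the Y-linked Ddx3y beside 857 CPM of Xist. Its Ddx3y level compares with at most 0.181 CPM in the other libraries with high Xist. Whether this library holds cells of more than 1 culture was not tested, and every mean and count of Pole4+/+ Trp53-/- includes it unless stated. Counts of called Hox genes that rest on it are given with and without it. Other results, such as the order of group means and the sums of marker and noncoding RNA lists, are given only with it.

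The MEFs carried a trunk-weighted Hox pattern with all 4 clusters on. Per kilobase of exon, which allows levels of different genes to be set side by side, Hoxb9 was highest (mean of 18 libraries, 16.3 CPM per kb), ahead of Hoxc6 (6.65), Hoxa5 (6.41), Hoxa7 (4.89), Hoxc8 (4.83), Hoxb8 (4.35) and Hoxb7 (4.17). These are thoracic-level genes by their known domains in the embryo. Hoxd13, which patterns digits and the genital tubercle, was the highest member of HoxD at 2.58 CPM per kb, above Hoxd8 (1.04) and Hoxd3 (0.270). Hoxb1, which marks the fourth rhombomere of the hindbrain, reached at most 0.0517 CPM in any library. Hoxb13, a gene of the tail end and hindgut, reached at most 0.272 CPM, and the tail bud markers summed to no more than 0.253 CPM in any library.

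Over all 18 libraries, differences among genotypes were called in low and middle paralogs. A difference among the 6 genotypes was called for 18 of the 35 Hox genes tested (adjusted p under 0.05), beside 28.5% of all genes tested. These were 8 of 8 in HoxB, 5 of 11 in HoxA, 4 of 8 in HoxC and 1 of 8 in HoxD. All 18 belonged to paralog groups 1 to 9 (18 of 25), and 0 of the 10 genes of groups 10 to 13 were called by edgeR, nor was any of them under 0.05 before adjustment. DESeq2's likelihood ratio test called 21 of 35, again all in groups 1 to 9, beside 37.3% of all genes. Without Pole4+/+ Trp53-/- library 1, edgeR called 23 of 36, beside 42.9% of all genes, and these included 2 distal paralogs, Hoxc11 and Hoxc13. Without Pole4-/- Trp53+/+ library 1, it called 12, beside 19% of all genes.

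**Figure D1:**
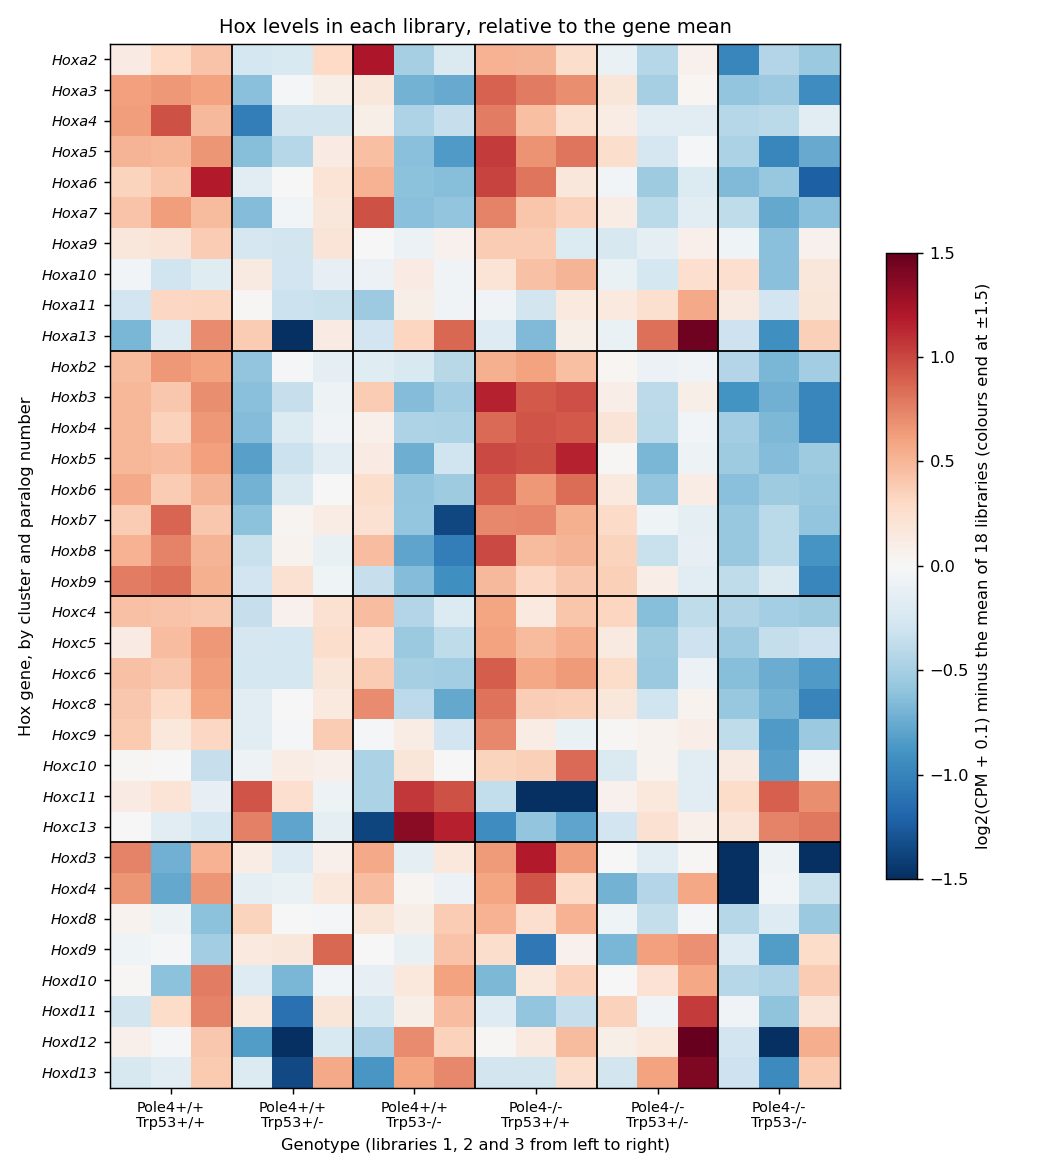
Level of 34 of the tested Hox genes (rows, by cluster and paralog number) in each of the 18 libraries (columns, 3 per genotype), as log2(CPM + 0.1) minus the gene's mean over all libraries, with colours ending at ±1.5. Low and middle paralogs of HoxA, HoxB and HoxC are mostly high in the Trp53+/+ columns and low in the Trp53-/- columns, while rows 10 to 13 vary from library to library. In most of these low and middle rows, library 1 of Pole4+/+ Trp53-/- stands above libraries 2 and 3, though some, such as Hoxb2 and Hoxb9, are low in it too.

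Most Hox genes of paralog groups 1 to 9 were called lower with loss of both Trp53 alleles in Pole4-/- cells, and 6 of the 25 in Pole4+/+ cells, where 22 had a fold change below 0. In Pole4-/- Trp53-/- against Pole4-/- Trp53+/+, 23 of the 35 Hox genes were lower, beside 20.8% of all genes tested called lower, and 1 was higher, beside 21.8%. The lower genes were 22 of the 25 in groups 1 to 9, whose median log2 fold change was -1.21, and 1 of the 10 in groups 10 to 13, whose median was -0.03. All 25 genes of groups 1 to 9 had a fold change below 0, as did 8052 of the 15710 genes tested, and 7150 of the 15710 did in Pole4+/+ cells. The median over all genes tested lay within 0.032 of 0 in every comparison. In Pole4+/+ cells, Trp53-/- against Trp53+/+, 6 were lower, beside 2.37% of all genes, and 0 higher. With 1 Trp53 allele lost, 6 were lower in Pole4-/- cells, beside 2.16%, and 2 in Pole4+/+ cells, beside 0.407%, and 0 were higher in either. In these last 3 comparisons, 15, 18 and 14 Hox genes were under 0.05 before adjustment, as were 2984, 4082 and 1610 of the 15710 genes, and DESeq2 called 9, 9 and 6 Hox genes, beside 8.65%, 12.3% and 2.9% of all genes.

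Summed over paralog groups 1 to 9, Hox levels ran from 275 to 284 CPM in Pole4+/+ Trp53+/+, from 144 to 200 CPM in Pole4+/+ Trp53+/- and from 125 to 233 CPM in Pole4+/+ Trp53-/- libraries. In Pole4-/- cells the same sum ran from 280 to 328 CPM with both Trp53 alleles, from 161 to 220 CPM with 1 allele and from 114 to 133 CPM with none. The 3 Pole4-/- groups thus did not overlap. Groups 10 to 13 summed to 17.2 to 46.1 CPM with all 6 genotypes overlapping, and their share of the Hox total was 7.42% to 10.98% in the 6 Trp53+/+ libraries, against 11.4% to 21.8% in the Trp53-/- libraries other than Pole4+/+ Trp53-/- library 1, which held 7.72%. By group means, 24 of the 25 genes of groups 1 to 9 fell with each Trp53 copy lost in Pole4-/- cells and 12 of 25 in Pole4+/+ cells. In groups 10 to 13, 1 of 10 and 0 of 10 did. This order was not counted over all genes, so it stands without a background share. In Pole4+/+ cells the Trp53+/- libraries were male and the others female, and library 1 of Trp53-/- is included. The comparisons within a Pole4 background share their Trp53+/+ libraries.

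**Figure D2:**
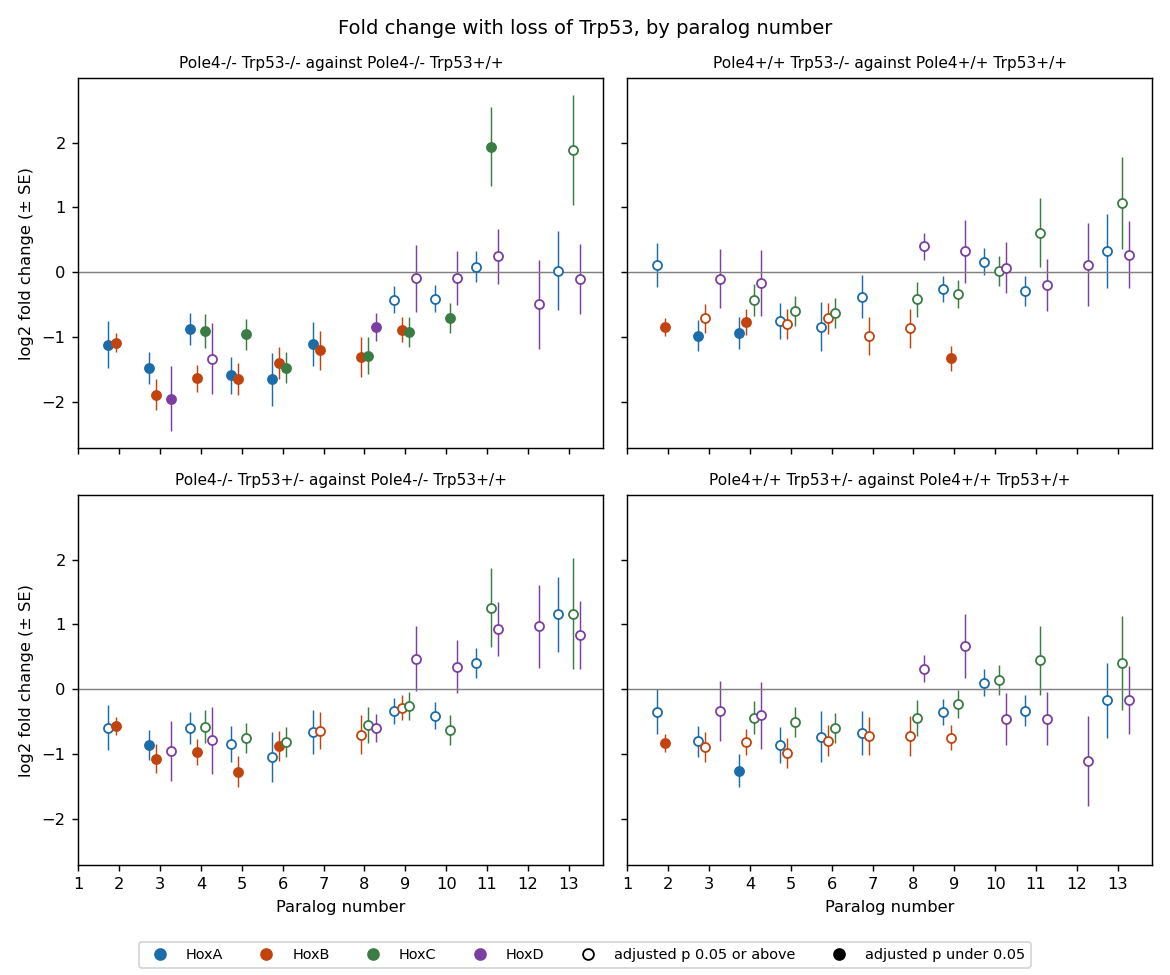
Log2 fold change (vertical axis, ± SE) of 34 tested Hox genes by paralog number (horizontal axis) and cluster (colour) in the 4 Trp53 comparisons. Filled points have an adjusted p under 0.05. Points of groups 1 to 9 lie mostly between -2 and 0, and points of groups 10 to 13 scatter around 0 with wider errors; 22 points are filled below 0 in the first panel and 5, 6 and 2 in the others.

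HoxB, at chr11:96194316-96368256 (GRCm38), was called in every tested member. All 8 tested members, Hoxb2 to Hoxb9, were lower in Pole4-/- Trp53-/- than in Pole4-/- Trp53+/+, and all 8 differed among genotypes. Hoxb2 stood at 11.6, 13.1 and 12.6 CPM in the Pole4+/+ Trp53+/+ libraries, at 5.46, 8.19 and 7.54 CPM in Pole4+/+ Trp53+/- and at 7.34, 7.1 and 6.22 CPM in Pole4+/+ Trp53-/-. Without Pole4, Hoxb2 stood at 12.1, 12.7 and 11.4 CPM in Trp53+/+, at 8.49, 7.81 and 8.03 CPM in Trp53+/- and at 6.12, 5.13 and 5.77 CPM in Trp53-/- libraries. Hoxb2 patterns the hindbrain and facial motor neurons. Its Trp53+/+ libraries all lay above every other library, with the smallest spread of any tested Hox gene (SD between libraries of a genotype, 0.15 on the log2 scale). It was 2.13-fold lower in Pole4-/- Trp53-/- (log2 fold change -1.09 ± 0.14 SE, adjusted p = 3.69e-05) and 1.80-fold lower in Pole4+/+ Trp53-/- (log2 fold change -0.84 ± 0.14 SE, adjusted p = 0.00214). With 1 allele lost it was 1.49-fold lower in Pole4-/- cells (log2 fold change -0.57 ± 0.14 SE, adjusted p = 0.032) and 1.77-fold lower in Pole4+/+ cells (log2 fold change -0.83 ± 0.14 SE, adjusted p = 0.0108). Both of these calls were lost with the Xist covariate. With 1 library left out, the first was kept in 0 of 6 fits and the second, which sets males against females, in 4 of 6.

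Hoxb3 and Hoxb4 pattern the caudal hindbrain and neck, and Hoxb4 is known for expanding blood stem cells. Hoxb3 fell from 24.03 ± 2.15 CPM to 6.48 ± 0.622 CPM (SD, n = 3) in Pole4-/- cells, or 3.71-fold (log2 fold change -1.89 ± 0.24 SE, adjusted p = 2.88e-05). Hoxb4, whose upstream sequence is shown above, fell from 11.5 ± 0.418 CPM to 3.68 ± 0.5897 CPM (SD, n = 3), or 3.11-fold (log2 fold change -1.64 ± 0.21 SE, adjusted p = 3.19e-05). With 1 allele lost, Hoxb5, a gene of gut and lung mesenchyme, was lower 2.42-fold in Pole4-/- cells (log2 fold change -1.27 ± 0.23 SE, adjusted p = 0.0131), Hoxb4 1.96-fold (log2 fold change -0.97 ± 0.20 SE, adjusted p = 0.0208) and Hoxb3 2.10-fold (log2 fold change -1.07 ± 0.23 SE, adjusted p = 0.0233). In Pole4+/+ Trp53-/-, Hoxb4 was 1.70-fold lower (log2 fold change -0.76 ± 0.20 SE, adjusted p = 0.0392). Antisense Hoxb3os shares 52.9% of the exonic bases of Hoxb3 and 27.3% of those of Hoxb2, and the kit does not mark strand, so these 2 values may include its reads.

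Hoxb9 stood at 67.4, 70.3 and 57.02 CPM in the Pole4+/+ Trp53+/+ libraries, at 32.2, 46.2 and 37.8 CPM in Pole4+/+ Trp53+/- and at 31.1, 25.1 and 20.9 CPM in Pole4+/+ Trp53-/-. Without Pole4, Hoxb9 stood at 55.1, 48.9 and 52.1 CPM in Trp53+/+, at 50.4, 42.2 and 35.4 CPM in Trp53+/- and at 30.3, 33.9 and 19.96 CPM in Trp53-/- libraries. Hoxb9 acts in the thoracic ribs and stood higher in all Pole4+/+ Trp53+/+ than in all Pole4-/- Trp53+/+ libraries. Its Trp53-/- libraries did not overlap the Trp53+/+ libraries with or without Pole4. It was 2.52-fold lower in Pole4+/+ Trp53-/- (log2 fold change -1.33 ± 0.19 SE, adjusted p = 0.000941) and 1.85-fold lower in Pole4-/- Trp53-/- (log2 fold change -0.89 ± 0.19 SE, adjusted p = 0.002). Hoxb8 stood at 15.2, 17.7 and 15.1 CPM in the Pole4+/+ Trp53+/+ libraries, at 8.401, 10.98 and 9.76 CPM in Pole4+/+ Trp53+/- and at 14.7, 6.05 and 5.09 CPM in Pole4+/+ Trp53-/-. Without Pole4, Hoxb8 stood at 21.2, 14.8 and 15.1 CPM in Trp53+/+, at 13.4, 8.37 and 9.73 CPM in Trp53+/- and at 7.08, 7.96 and 5.702 CPM in Trp53-/- libraries. Hoxb8, a thoracic gene also used in early myeloid cells, had the largest spread between libraries in HoxB (0.40). In Pole4-/- cells its Trp53-/- libraries lay below all Trp53+/+ libraries, as they did in Pole4+/+ cells, where library 1 came nearest at 14.7 against 15.1 CPM.

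HoxA, on chromosome 6, divided within the cluster. In Pole4-/- Trp53-/- against Pole4-/- Trp53+/+, Hoxa2 to Hoxa7 were lower, while Hoxa9, Hoxa10, Hoxa11 and Hoxa13 had log2 fold changes of -0.43, -0.41, 0.09 and 0.02 that did not pass. Hoxa3 stood at 16.7, 17.1 and 16.6 CPM in the Pole4+/+ Trp53+/+ libraries, at 6.996, 10.7 and 11.5 CPM in Pole4+/+ Trp53+/- and at 12.2, 6.596 and 6.39 CPM in Pole4+/+ Trp53-/-. Without Pole4, Hoxa3 stood at 20.2, 18.7 and 17.7 CPM in Trp53+/+, at 12.4, 7.67 and 11.1 CPM in Trp53+/- and at 7.17, 7.43 and 5.64 CPM in Trp53-/- libraries. Hoxa3 is needed for the thymus, parathyroid and throat cartilages. All 6 Trp53+/+ libraries lay above every other library for this gene. It was 2.79-fold lower in Pole4-/- Trp53-/- (log2 fold change -1.48 ± 0.25 SE, adjusted p = 0.000266), 1.98-fold lower in Pole4+/+ Trp53-/- (log2 fold change -0.98 ± 0.24 SE, adjusted p = 0.0273) and 1.82-fold lower in Pole4-/- Trp53+/- (log2 fold change -0.86 ± 0.24 SE, adjusted p = 0.0481), a call lost in all 6 fits that left out 1 library and with the Xist covariate. Other transcripts, mostly antisense, share 27.1% of its exonic bases.

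Hoxa5 stood at 15.6, 15.6 and 17.4 CPM in the Pole4+/+ Trp53+/+ libraries, at 6.996, 8.12 and 11.97 CPM in Pole4+/+ Trp53+/- and at 15.1, 7.06 and 6.06 CPM in Pole4+/+ Trp53-/-. Without Pole4, Hoxa5 stood at 22.8, 17.5 and 19.3 CPM in Trp53+/+, at 13.2, 9.21 and 10.8 CPM in Trp53+/- and at 7.85, 5.497 and 6.43 CPM in Trp53-/- libraries. Hoxa5, which patterns the neck-to-thorax transition and the lung, was 3.01-fold lower in Pole4-/- Trp53-/- (log2 fold change -1.59 ± 0.29 SE, adjusted p = 0.000558). In Pole4+/+ Trp53-/- its library 1 reached 15.1 CPM and lay just under the wild-type libraries, and the fold change did not pass (log2 fold change -0.76 ± 0.28 SE, adjusted p = 0.133). Hoxa4 was 2.40-fold lower in Pole4+/+ Trp53+/- (log2 fold change -1.26 ± 0.25 SE, adjusted p = 0.0261) and 1.92-fold lower in Pole4+/+ Trp53-/- (log2 fold change -0.94 ± 0.25 SE, adjusted p = 0.0394). Both targeted genes lie on a chromosome with a Hox cluster, Pole4 with HoxA at chr6:82618992-82705365 and Trp53 with HoxB at chr11:69580359-69591873.

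HoxC, at chr15:102921103-103036852, had calls in both directions, the single higher one being Hoxc11. In Pole4-/- Trp53-/- against Pole4-/- Trp53+/+, Hoxc4, Hoxc5, Hoxc6, Hoxc8, Hoxc9 and Hoxc10 were lower and Hoxc11 was higher, 7 of the 8 tested. Hoxc6 stood at 20.3, 19.8 and 23.1 CPM in the Pole4+/+ Trp53+/+ libraries, at 12.4, 12.4 and 17.03 CPM in Pole4+/+ Trp53+/- and at 19.4, 10.6 and 10.3 CPM in Pole4+/+ Trp53-/-. Without Pole4, Hoxc6 stood at 28.2, 22.4 and 23.4 CPM in Trp53+/+, at 18.1, 10.2 and 14.03 CPM in Trp53+/- and at 9.57, 8.85 and 8.22 CPM in Trp53-/- libraries. Hoxc6 marks the thorax and the forelimb-bearing level, and was the highest HoxC gene per kilobase. Its Pole4-/- Trp53-/- libraries lay below all others. It was 2.79-fold lower there (log2 fold change -1.48 ± 0.24 SE, adjusted p = 0.000226), Hoxc8, a thoracic gene of brachial motor neurons, 2.44-fold (log2 fold change -1.29 ± 0.29 SE, adjusted p = 0.00238) and Hoxc9, which sets thoracic motor neuron identity, 1.90-fold (log2 fold change -0.92 ± 0.23 SE, adjusted p = 0.00422). Hoxc9 was not called without Pole4-/- Trp53+/+ library 1, where its log2 fold change was -0.60.

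Hoxc10, a gene of lumbar segments and the hindlimb, was the only member of groups 10 to 13 that was lower, 1.64-fold (log2 fold change -0.71 ± 0.24 SE, adjusted p = 0.0239), from 6.703, 6.84 and 9.64 CPM in Pole4-/- Trp53+/+ to 5.85, 2.98 and 5.17 CPM. It was not called without Pole4-/- Trp53-/- library 2, where its log2 fold change was -0.47, or without Pole4-/- Trp53+/+ library 3. Hoxc11, a sacral and hindlimb gene, was 3.83-fold higher (log2 fold change 1.94 ± 0.61 SE, adjusted p = 0.0179), but rested on few reads: 0.487, 0.167 and 0 CPM, or 13, 2 and 0 counts, in Pole4-/- Trp53+/+ against 0.817, 1.31 and 1.13 CPM. Its log2 fold change was 3.38 without Pole4-/- Trp53+/+ library 1 and 1.59 without library 3 of that genotype, and it was not called without Pole4-/- Trp53+/+ library 2 or without Pole4-/- Trp53-/- library 2. Hoxc13 stood at 0.302, 0.259 and 0.237 CPM in the Pole4+/+ Trp53+/+ libraries, at 0.583, 0.133 and 0.266 CPM in Pole4+/+ Trp53+/- and at 0.0558, 0.931 and 0.808 CPM in Pole4+/+ Trp53-/-. Without Pole4, Hoxc13 stood at 0.112, 0.167 and 0.134 CPM in Trp53+/+, at 0.231, 0.374 and 0.326 CPM in Trp53+/- and at 0.363, 0.576 and 0.597 CPM in Trp53-/- libraries. Hoxc13, which acts in hair follicles and nails, had the largest spread in HoxC (0.75 on the log2 scale). In Pole4+/+ Trp53-/-, its libraries 2 and 3 were the highest of all 18 and library 1 the lowest.

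HoxD, at chr2:74668310-74765142, held the fewest calls of the 4 clusters. Hoxd3 and Hoxd8 were lower in Pole4-/- Trp53-/- (2 of 8). Hoxd3, a gene of the upper neck vertebrae, was 3.88-fold lower (log2 fold change -1.95 ± 0.50 SE, adjusted p = 0.00551), from 1.61, 2.42 and 1.61 to 0.227, 0.942 and 0.265 CPM. Its log2 fold change was -2.91 without Pole4-/- Trp53-/- library 2 and -1.59 without library 1 of that genotype, and it was called in all 6 fits that left out 1 library. Other genes, Hoxd4 among them, share 62.8% of its exonic bases, so its reads may be split between them. Hoxd8 stood at 2.87, 2.64 and 1.78 CPM in the Pole4+/+ Trp53+/+ libraries, at 3.52, 2.796 and 2.75 CPM in Pole4+/+ Trp53+/- and at 3.15, 2.95 and 3.64 CPM in Pole4+/+ Trp53-/-. Without Pole4, Hoxd8 stood at 4.04, 3.34 and 4.01 CPM in Trp53+/+, at 2.64, 2.15 and 2.71 CPM in Trp53+/- and at 2.04, 2.41 and 1.86 CPM in Trp53-/- libraries. Hoxd8, a trunk gene, was 1.80-fold lower in Pole4-/- Trp53-/- (log2 fold change -0.85 ± 0.21 SE, adjusted p = 0.00505). In Pole4+/+ cells its Trp53-/- libraries all lay above its Trp53+/+ libraries, without passing the test (log2 fold change 0.40 ± 0.21 SE, adjusted p = 0.32).

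**Figure D3:**
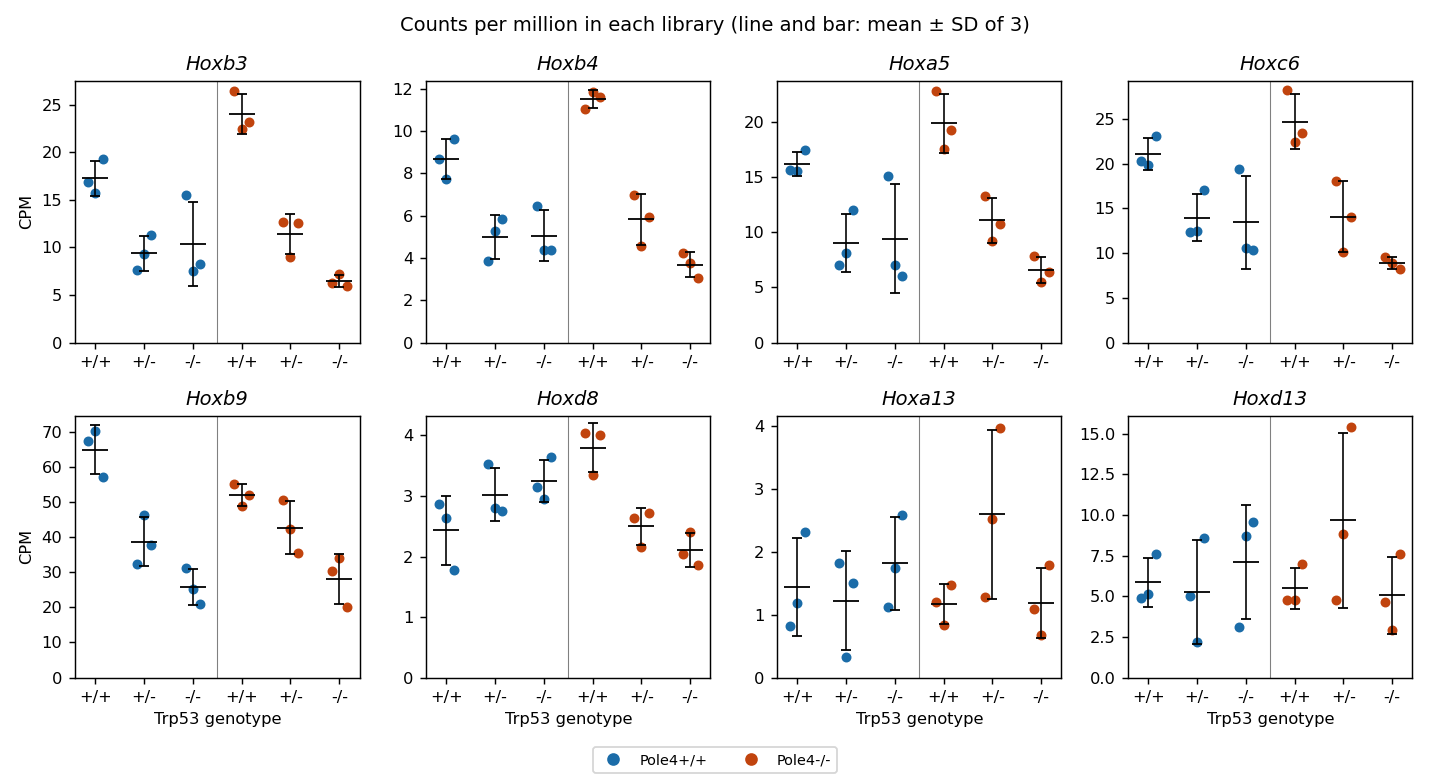
CPM (vertical axis, from 0) of 8 Hox genes in each library by Trp53 genotype (horizontal axis), Pole4+/+ in blue and Pole4-/- in orange; the line and bar give the mean ± SD of 3 libraries. Hoxb3, Hoxb4, Hoxa5, Hoxc6 and Hoxb9 stand highest in Trp53+/+, the Trp53-/- libraries of Hoxd8 lie below Trp53+/+ in Pole4-/- and above it in Pole4+/+ cells, and Hoxa13 and Hoxd13 overlap across genotypes.

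Further members lower in Pole4-/- Trp53-/- were Hoxa2, Hoxa4, Hoxa6 and Hoxa7, Hoxb5 to Hoxb8, and Hoxc4 and Hoxc5, with fold changes from 1.84 (Hoxa4) to 3.15 (Hoxa6) and adjusted p from 0.000103 (Hoxb5) to 0.0205 (Hoxa2). Of these, Hoxa2, Hoxa4, Hoxa7 and Hoxc4 were not called without Pole4-/- Trp53+/+ library 1, Hoxa2 also not without library 2 of that genotype or Pole4-/- Trp53-/- library 1, and Hoxa7 also not without Pole4-/- Trp53-/- library 2 or 3 or with no filter on low counts. Hoxa7 and Hoxa2 showed library 1 of Pole4+/+ Trp53-/- most plainly. Hoxa7 read 17.8, 20.3 and 18.2 CPM in Pole4+/+ Trp53+/+ and 25.6, 8.497 and 8.65 CPM in Pole4+/+ Trp53-/- libraries. Hoxa2, a gene of the second pharyngeal arch, read 3.99, 4.55 and 4.98 CPM in the first of these groups and 8.62, 2.56 and 3.15 CPM in the second. For both genes, that library was the highest of all 18, while libraries 2 and 3 lay below every wild-type library. Members not called in any comparison of 2 genotypes by edgeR with all 18 libraries were Hoxa9, Hoxa10, Hoxa11, Hoxa13, Hoxc13, Hoxd4 and Hoxd9 to Hoxd13. In other fits, Hoxd4 was called lower in Pole4-/- Trp53-/- by DESeq2 and without Pole4-/- Trp53-/- library 2. Hoxa9 was called lower there with the Xist covariate and without Pole4-/- Trp53+/+ library 3. Such calls of Hoxa10 and Hoxc13 are given below. Hoxd4 and Hoxd9 to Hoxd12 reached at most 3.47 CPM in all libraries, and Hoxa9, Hoxa10 and Hoxa11 lay between 2.204 and 8.43 CPM.

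In Pole4+/+ cells the count of lower genes rested on single libraries. Without Pole4+/+ Trp53-/- library 1, 18 Hox genes were lower and 1, Hoxc13, higher, beside 16.9% of all genes called in either direction. Among the 18 were Hoxa3 to Hoxa7, all 8 tested HoxB genes, Hoxc4, Hoxc5, Hoxc6 and Hoxc8. Without any other of the 6 libraries compared, 2 or 3 were lower: 2 without Pole4+/+ Trp53+/+ library 2, and 3 each without Pole4+/+ Trp53+/+ libraries 1 and 3 and Pole4+/+ Trp53-/- libraries 2 and 3, beside 2.01% to 4.02% of all genes in these fits and 4.6% with all libraries. Hoxb2 and Hoxb9 were called in all 6 of these fits, and Hoxa3, Hoxa4 and Hoxb4 only in the 1 without Pole4+/+ Trp53-/- library 1. A fit to these 6 libraries alone called only Hoxb9, beside 0.616% of all genes.

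For Pole4-/- Trp53-/- against Pole4-/- Trp53+/+, each group held both sexes, and with Xist as a covariate 24 were lower and 1 higher, beside 38.3% of all genes called. With any single library dropped, 19 to 24 were called, beside 31.5% to 37.3%, against 42.6% with all libraries. Ribosomal RNA took 24.7% to 30% of the counts in the Pole4-/- Trp53-/- libraries and 7.11% to 42.5% in Pole4-/- Trp53+/+, so the groups overlapped in this measure. The 6 genes lower in Pole4-/- Trp53+/- became 1 (Hoxb5) with the Xist covariate, beside 0.643% of all genes against 5.12% without it. With 1 library left out, the count of Hox genes called was 1 without Pole4-/- Trp53+/+ library 1. It was 0 without Pole4-/- Trp53+/+ library 2 or 3 or Pole4-/- Trp53+/- library 2. It was 3 without Pole4-/- Trp53+/- library 3 and 4 without its library 1, where Hoxc6, not among the 6 genes, was 1 of the 4. These counts stood beside 0.105% to 3.45% of all genes over the 6 fits. Hoxb5 was called in 3 of the 6, Hoxb3 and Hoxb4 in 2 each, and Hoxa3, Hoxb2 and Hoxb6 in 0. A fit to these 6 libraries alone called 13, beside 18.2%. In Pole4+/+ Trp53+/- against Pole4+/+ Trp53+/+, all males were set against all females, so genotype and sex cannot be told apart: the 2 genes became 0 with the covariate, beside 0.331% of all genes against 0.904% without it, and 0 without Pole4+/+ Trp53+/+ library 2 or Pole4+/+ Trp53+/- library 1, beside 0.105% and 0.118%. They became 1 (Hoxb2) without Pole4+/+ Trp53+/+ library 1 or 3 or Pole4+/+ Trp53+/- library 3, beside 0.21% to 0.413%.

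No Hox gene was called between Pole4 genotypes. In Trp53+/+ cells, 0 of 35 were called, beside 3.98% of all genes tested, with 6 under 0.05 before adjustment, as were 4101 of the 15710 genes, and 0 called by DESeq2. The lowest p was that of Hoxd8, 1.55-fold higher in Pole4-/- (log2 fold change 0.64 ± 0.21 SE, adjusted p = 0.0867). A fit to these 6 libraries alone called 6 of 34, with Hoxa10, Hoxb3, Hoxb4, Hoxb5 and Hoxc10 higher and Hoxb9 lower in Pole4-/-, beside 24.1% of all genes. In Trp53+/- cells, 0 were called, beside 0.00637%, with 2 under 0.05 before adjustment, as were 866 of the 15710 genes, and 0 by DESeq2. In Trp53-/- cells, 0 were called, beside 0.00637%, with 8 under 0.05 before adjustment, as were 1636 of the 15710 genes, and 0 by DESeq2. Of the 35, 31 stood lower in Pole4-/-, as did 8271 of the 15710 genes, and no test was run on this count. That comparison again holds Pole4+/+ Trp53-/- library 1, without which 27 of 36 stood lower and 0 were called.

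Whether the effect of Trp53-/- differed between Pole4+/+ and Pole4-/- cells was asked with an interaction term, and 0 Hox genes were called, beside 0.331% of all genes, with 9 under 0.05 before adjustment, as were 4453 of the 15710 genes. Hoxd8 came nearest (log2 fold change -1.25 ± 0.30 SE, adjusted p = 0.0522), followed by Hoxb3 (log2 fold change -1.18 ± 0.32 SE, adjusted p = 0.0616). DESeq2 called both, beside 12.8% of all genes. The fold change of 28 of the 35 genes was lower in Pole4-/- cells, as was that of 8061 of the 15710 genes. The median difference of the Hox genes was -0.50 on the log2 scale. Without Pole4+/+ Trp53-/- library 1, 26 of 36 Hox genes had a lower fold change in Pole4-/- cells, with a median of -0.30. Leaving out Pole4+/+ Trp53-/- library 2 gave 5 calls, beside 12.3% of all genes, and leaving out its library 3 also gave 5, beside 20.1%. Hoxd8, Hoxb3 and Hoxb4 were among both, and leaving out library 1 gave 0, beside 1.07%.

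The distal paralogs varied widely between libraries of 1 genotype on the log2 scale, but as a set not more for their level than groups 1 to 9. In groups 10 to 13 the median SD between libraries of a genotype was 0.60 on the log2 scale against 0.31 in groups 1 to 9 and 0.24 over all genes tested. Groups 10 to 13 also stood at lower levels, with a median log2 CPM of 0.72 against 2.60 and 3.66. Hoxd13 had the largest spread for its level, with a biological coefficient of variation of 43.4% where the trend over all genes at its level gave 24.4%. Its libraries held 33 to 426 counts. Of the 35 genes, 14 lay above their trend value, 4 of the 10 in groups 10 to 13 and 10 of the 25 in groups 1 to 9. Over all genes 3957 of 15710 did. The median ratio to the trend was 0.835 in groups 10 to 13, 0.883 in groups 1 to 9 and 0.748 over all genes. Several distal paralogs stood highest in libraries of the same replicate number. Library 3 held the highest level of its genotype in 6 of 6 genotypes for Hoxd13 and Hoxd10 and in 5 of 6 for Hoxa13, Hoxd11 and Hoxd12, but in 0 for Hoxc11 and in 1 for Hoxc10 and Hoxc13. Over the 10 distal genes and 6 genotypes it was highest in 35 of 60 cases, against 47 of 150 in groups 1 to 9. Library 3 was also the shallowest of its genotype in 5 of 6 genotypes, and the part of depth in this spread was not tested.

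Hoxd13 stood at 4.87, 5.12 and 7.59 CPM in the Pole4+/+ Trp53+/+ libraries, at 5.01, 2.196 and 8.603 CPM in Pole4+/+ Trp53+/- and at 3.096, 8.73 and 9.54 CPM in Pole4+/+ Trp53-/-. Without Pole4, Hoxd13 stood at 4.76, 4.76 and 6.96 CPM in Trp53+/+, at 4.77, 8.84 and 15.4 CPM in Trp53+/- and at 4.63, 2.93 and 7.62 CPM in Trp53-/- libraries. The highest library, Pole4-/- Trp53+/- library 3, contrasted with the lowest, Pole4+/+ Trp53+/- library 2; the ranges of all 6 genotypes overlapped. Hoxa13 stood at 0.816, 1.19 and 2.31 CPM in the Pole4+/+ Trp53+/+ libraries, at 1.83, 0.333 and 1.51 CPM in Pole4+/+ Trp53+/- and at 1.12, 1.75 and 2.59 CPM in Pole4+/+ Trp53-/-. Without Pole4, Hoxa13 stood at 1.198, 0.835 and 1.47 CPM in Trp53+/+, at 1.28, 2.52 and 3.98 CPM in Trp53+/- and at 1.09, 0.681 and 1.79 CPM in Trp53-/- libraries. Hoxa13 and Hoxd13 together pattern the digits, and their highest library was the same in 5 of 6 genotypes, as was the lowest. Hoxd12 stood at 0.786, 0.724 and 1.01 CPM in the Pole4+/+ Trp53+/+ libraries, at 0.371, 0.1997 and 0.621 CPM in Pole4+/+ Trp53+/- and at 0.502, 1.28 and 0.9701 CPM in Pole4+/+ Trp53-/-. Without Pole4, Hoxd12 stood at 0.749, 0.835 and 1.07 CPM in Trp53+/+, at 0.795, 0.842 and 3.47 CPM in Trp53+/- and at 0.5897, 0.157 and 1.13 CPM in Trp53-/- libraries. Hoxd12, a neighbour of Hoxd13 used in the same limb buds, had the largest spread of any tested Hox gene (0.77 on the log2 scale), and Pole4-/- Trp53+/- library 3 again held its highest level.

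**Figure D4:**
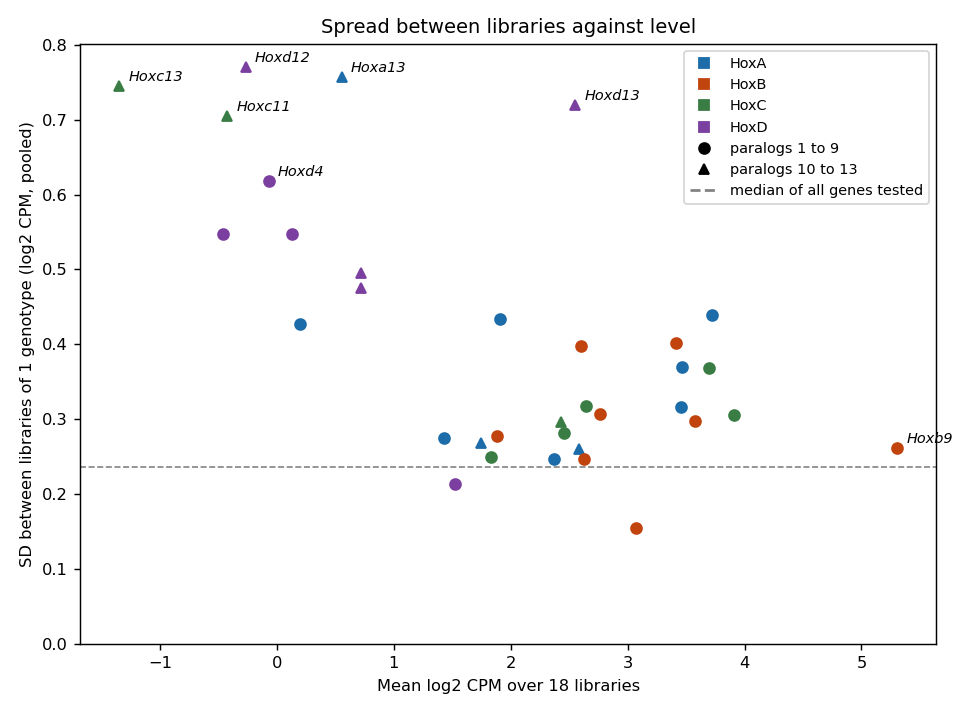
SD between libraries of 1 genotype (vertical axis, log2 CPM, pooled over genotypes) against mean log2 CPM (horizontal axis) for 34 tested Hox genes, circles for paralog groups 1 to 9 and triangles for 10 to 13, colours for clusters. Hoxd13 stands at 0.72 where genes of like level stand between 0.25 and 0.40; the dashed line is the median of all genes tested (0.24).

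Relations between libraries were tested for 8 pairs of genes, as the correlation of log2 CPM after the genotype mean was taken out (18 libraries, exact two-sided permutation of libraries within genotype, Benjamini-Hochberg over the 8). Hoxa13 and Hoxd13, which lie on chromosomes 6 and 2, moved together with Pearson's r = 0.886 (exact permutation p = 3e-04, adjusted p = 0.0024) and Spearman's rho = 0.843 (p = 0.00109, adjusted p = 0.00874). Without the 2 libraries farthest from the median of Hoxa13, r was 0.799 (exact permutation p = 0.00424), and leaving out each library in turn gave r from 0.848 to 0.934 with all 18 fits called. With the mean of each replicate number also removed, r was 0.809, a value chosen after the data were seen and given with no test. Both genes stood highest in library 3 of most genotypes. Hoxa11 and Hoxd11, the pair that patterns the forearm and shank, had r = 0.689 (exact permutation p = 0.00834, adjusted p = 0.0334) and rho = 0.626 (exact permutation p = 0.0248, adjusted p = 0.0828). That relation rested on the farthest libraries, with r = 0.592 (exact permutation p = 0.0812) without 2 of them, and was called in 9 of the 18 fits with 1 library left out.

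The other 6 relations did not pass. Hoxa10 and Hoxd10 had r = 0.456 (exact permutation p = 0.0912, adjusted p = 0.243), and rho = 0.562 (p = 0.031, adjusted p = 0.0828). Hoxb9 and Hoxc9, thoracic paralogs, had r = 0.064 (exact permutation p = 0.812, adjusted p = 0.838) and rho = 0.032. Hoxc10, a hindlimb-level gene, showed no relation past the threshold with the hindlimb genes Pitx1 (r = -0.381, exact permutation p = 0.126, adjusted p = 0.252) and Tbx4 (r = 0.332, exact permutation p = 0.345, adjusted p = 0.551), nor with the forelimb gene Tbx5 (r = 0.056, exact permutation p = 0.838). Hoxc5, a gene of the forelimb level, had r = -0.178 with Tbx5 (exact permutation p = 0.496, adjusted p = 0.661). Hoxc5 and Hoxc10 share 8.7% of the exonic bases of Hoxc10.

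**Figure D5:**
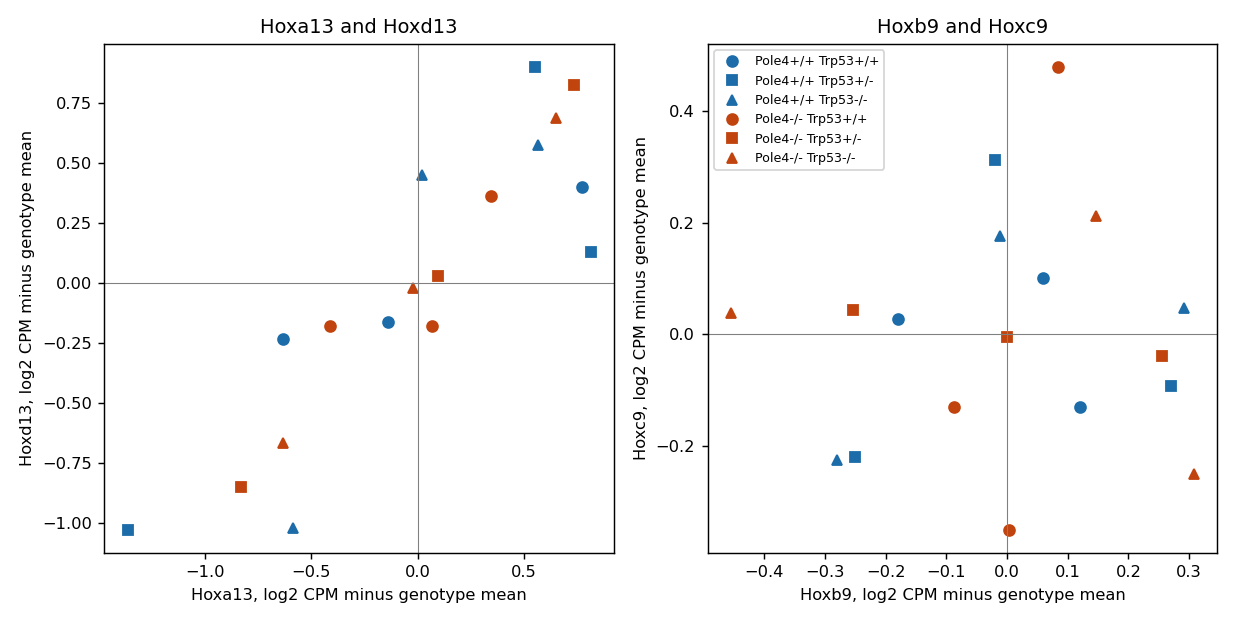
Log2 CPM minus the genotype mean of Hoxd13 against Hoxa13 (left) and of Hoxc9 against Hoxb9 (right), 1 point per library, with shape for Trp53 and colour for Pole4 genotype. The left points follow a rising line (r = 0.886) and the right points do not (r = 0.064).

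Markers of other positions and cell types moved with Trp53 genotype beside the Hox genes, and their part in the Hox differences was not tested. The counts of these and the later lists stand beside 20.8% of all genes lower and 21.8% higher in Pole4-/- Trp53-/- against Pole4-/- Trp53+/+, and beside 372 lower and 351 higher of 15710 in Pole4+/+ Trp53-/- against Pole4+/+ Trp53+/+. The 15 limb mesenchyme markers summed to 499 to 541 CPM in the 6 Trp53+/+ libraries and to 754 to 927 CPM in the 6 Trp53-/- libraries, with 9 of 14 tested higher in Pole4-/- Trp53-/- and 8 of 14 in Pole4+/+ Trp53-/-, and 0 lower. Prrx1 alone averaged 450 CPM over the 18 libraries (336 to 682 CPM) and made up most of the limb mesenchyme sum. Examples were Msx1, of distal limb mesenchyme (log2 fold change 2.15 ± 0.26 SE, adjusted p = 2.09e-05), and Shox2, of the proximal limb, in Pole4+/+ cells (log2 fold change 1.58 ± 0.21 SE, adjusted p = 0.000348). En1 was also higher (log2 fold change 1.73 ± 0.20 SE, adjusted p = 1.78e-05), but it marks ventral limb ectoderm and dermal fibroblast lineages and so is not particular to limb mesenchyme. The 7 head mesenchyme markers summed to 16.6 to 20.95 CPM in Trp53+/+ and 35.7 to 53.6 CPM in Trp53-/- libraries, with 4 of 7 higher in both backgrounds. Lhx8, of the jaw mesenchyme, led them (log2 fold change 3.19 ± 0.31 SE, adjusted p = 4.48e-06), also in Pole4+/+ cells (log2 fold change 2.48 ± 0.28 SE, adjusted p = 8.5e-05). 

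Of the hindlimb genes, Pitx1 was higher in Pole4-/- Trp53-/- (log2 fold change 1.04 ± 0.29 SE, adjusted p = 0.00962) and in Pole4+/+ Trp53-/- (log2 fold change 1.62 ± 0.29 SE, adjusted p = 0.00421), and Tbx4 was called in neither. Tbx5, of the forelimb, was called in neither. Among trunk somite markers, Nkx3-2, of the sclerotome, was lower in both (log2 fold change -2.68 ± 0.51 SE, adjusted p = 0.000769; log2 fold change -2.04 in Pole4+/+), with 3 of 8 lower and 2 higher in Pole4-/- Trp53-/- and 2 of 8 lower and 0 higher in Pole4+/+ Trp53-/-. Skeletal muscle markers summed to 117 to 153 CPM in Trp53+/+ and 43.5 to 74.9 CPM in Trp53-/- libraries, with Acta1 and Des lower in both backgrounds (2 of 6 tested), although the median log2 fold change of the 6 was 0.305 in Pole4-/- and 0.735 in Pole4+/+ cells. Cartilage markers summed to 310 to 693 CPM in Trp53+/+ and 139 to 370 CPM in Trp53-/- libraries, without overlap within either Pole4 background, with Col2a1 lower in Pole4-/- cells. Fibroblast markers summed to 13790 to 31090 CPM over all libraries, and moved with the Hox genes in Pole4-/- cells, from 25080 to 31090 CPM in Trp53+/+ to 13790 to 16680 CPM in Trp53-/- libraries, which did not overlap. There, 5 of 11 were lower, among them Col3a1, Fn1 and Col1a1 (log2 fold changes -1.40, -1.19 and -0.75), and Pdgfra was higher (1.49). In Pole4+/+ cells they summed to 16590 to 22140 and 16040 to 21410 CPM, with 0 lower and Pdgfra higher. Erythroid markers reached at most 1.86 CPM and endothelial markers at most 6.17 CPM in any library, and macrophage markers, 4.20 to 49.2 CPM, overlapped between all genotypes with 0 of 6 called in the 4 Trp53 comparisons. Neuronal markers (165 to 305 CPM) and gut and urogenital mesenchyme markers (34.5 to 61.3 CPM) had 3 of 6 and 1 of 3 higher in Pole4-/- Trp53-/-, while in Pole4+/+ cells 1 neuronal marker, Nes, was lower with 1 or both Trp53 alleles lost and 0 were higher. The epithelial genes Krt8 and Krt18 were both higher in Pole4-/- Trp53-/-, and were the only 2 of the 6 listed that were tested. The 6 summed to 4.398 to 20.2 CPM in Pole4-/- Trp53-/- against 2.06 to 2.67 CPM in Pole4-/- Trp53+/+. The 4 Schwann cell and neural crest markers summed to 1.72 to 4.82 CPM in Pole4-/- Trp53+/+ and to 0.419 to 1.06 CPM in Pole4-/- Trp53-/- libraries, without overlap.

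Genes that work with or on Hox genes changed unevenly. Of the 9 cofactors (Pbx, Meis and Pknox genes, whose products bind DNA with Hox proteins), Pknox2 and Meis3 were lower in Pole4-/- Trp53-/- (log2 fold changes -0.95 and -0.42), 2 of 9 beside 20.8% of all genes, and 0 were called in the other 3 Trp53 comparisons. Polycomb genes, whose products keep silent Hox genes off, were higher for 9 and lower for 4 of 22, led by Ezh2 (log2 fold change 1.36 ± 0.16 SE, adjusted p = 1.79e-05). Trithorax genes, which keep Hox genes on, were higher for 8 and lower for 1 of 12, led by Psip1 (log2 fold change 1.33 ± 0.13 SE, adjusted p = 4.93e-06). In Pole4+/+ Trp53-/-, 0 of 22 and 1 of 12 were called. Ezh2 also differed between Pole4 genotypes in Trp53+/+ cells, lower in Pole4-/- (log2 fold change -0.64 ± 0.16 SE, adjusted p = 0.0381). Of 9 tested retinoid and growth factor regulators, 2 were higher and 1 lower in Pole4-/- Trp53-/-, with a median log2 fold change of -0.122, and 1 was higher in each of the other 3 Trp53 comparisons. Crabp1, which binds retinoic acid, the signal that switches on low-numbered Hox genes, was higher in all 4 Trp53 comparisons, with log2 fold changes of 1.93 and 1.83 for both alleles lost and 1.76 and 2.18 for 1, in Pole4-/- and Pole4+/+ cells in turn.

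Of the noncoding RNAs of the clusters, 4 of 6 tested were lower in Pole4-/- Trp53-/- and 0 higher, among them Hoxb5os (log2 fold change -3.02 ± 0.57 SE, adjusted p = 0.00076) and Hotairm1, of HoxA (log2 fold change -0.94 ± 0.29 SE, adjusted p = 0.0168). Their reads cannot be told apart by strand from those of the overlapping Hox genes. The 10 listed summed to 10.9 to 11.51 CPM in Pole4-/- Trp53+/+ and 3.91 to 5.18 CPM in Pole4-/- Trp53-/- libraries. In the other 3 Trp53 comparisons 0 of the 6 were called, and the sum in Pole4+/+ Trp53-/- libraries, 3.96 to 7.78 CPM, overlapped that in wild type, 7.17 to 7.76 CPM. Of 12 tested genes flanking the clusters, near the shares of all genes, 3 were lower in Pole4-/- Trp53-/-, led by Calcoco1 (log2 fold change -1.27 ± 0.23 SE, adjusted p = 0.000529), and 3 higher, led by Cbx5 (log2 fold change 0.97 ± 0.13 SE, adjusted p = 5.15e-05).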

How the data were processed

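The values are RSEM's expected counts per gene, as deposited by the authors in 1 table of 51912 rows and 18 libraries. Per the study's methods and the submitters' processing notes, the authors prepared libraries with an Ovation kit that does not mark strand, sequenced paired ends, trimmed reads and counted them with RSEM 1.3.0 and STAR 2.5.2 on GRCm38. Of the values, 6.14% were not whole, and they were rounded. Symbols and positions came from GENCODE's annotation of the same build, which matched 51719 rows, and promoter windows from RefSeq.

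Genes were filtered with filterByExpr, scaled by the trimmed mean of M values and fitted with 1 mean per genotype over all 18 libraries in edgeR 4.0.16 (R 4.3.3), with robust quasi-likelihood F-tests, 12 residual degrees of freedom and Benjamini-Hochberg adjustment over 15710 genes. A gene was called at an adjusted p under 0.05. Log2 CPM used a prior count of 2. The fit was tested on simulated counts. DESeq2 1.42.0, other scaling, no filter, a replicate block, an Xist covariate, fits to only the libraries compared and leaving out single libraries were the alternatives.

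The members and gene lists were chosen with earlier results of these data known. Values of all libraries are given, per cluster, for the tested member with the lowest p among genotypes, the highest level per kilobase and the largest spread. Up to 3 called members per cluster and comparison have their fold change, and of each list the 2 called genes with the lowest p may be named. Library totals of 9535971 to 35319918 counts set the precision. Among the 7 comparisons of 2 genotypes, same-numbered libraries deviated together (r over 0.1 in all 3 pairs) only in Pole4-/- Trp53+/- against Pole4+/+ Trp53+/- (r of 0.261, 0.497 and 0.292). Other pairs of genotypes were not examined. A block there changed no Hox call. The numbers were treated as names elsewhere, although some distal Hox genes stood highest in library 3 of most genotypes. The values of 1 member are not reported here. It stays in the counts and sums over members and was left out of the plots.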

Additional observations from a re-analysis of the deposited data

Results flagged for a closer look

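Hoxd8 had fold changes of opposite sign with loss of Trp53 in the 2 Pole4 backgrounds, of which 1 passed the test. In Pole4-/- cells all 3 Trp53-/- libraries lay below all 3 Trp53+/+ libraries (log2 fold change -0.851 ± 0.21 SE, edgeR adjusted p = 0.00505), and in Pole4+/+ cells all 3 Trp53-/- libraries lay above all 3 Trp53+/+ libraries (log2 fold change 0.40 ± 0.21 SE, adjusted p = 0.32). The interaction did not pass in edgeR (-1.25 ± 0.30 SE, adjusted p = 0.0522), which called 52 of 15710 genes, or 0.331%. It passed with DESeq2 (12.8% of all genes called), with median-of-ratios size factors (1.6%) and with a replicate block (3.49%). It did not pass with the Xist covariate (0%), with no filter on low counts (1.14%) or in a fit to only the libraries compared (0%). With single libraries left out, it passed only without Pole4+/+ Trp53-/- library 2 (12.3%) or 3 (20.1%). Its annotated exons share 0 bases with other genes, and its counts ran from 28 to 133 per library. Groups of 3 libraries were too small for a test of single outlying libraries.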

How the results depend on the processing

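Of the called Hox results, 290 of 318 values under the alternatives with all libraries and 444 of 552 with 1 library left out stayed called. These totals pool fold changes with the adjusted p for any difference among genotypes, which has no direction. Each of the latter entered 18 fits with 1 library left out, and each fold change 6. Of the fold changes, 0 changed direction. The cause of each change was not tested. The count for Pole4-/- Trp53+/- against Pole4-/- Trp53+/+ went from 6 (5.12% of all genes called) to 1 with the Xist covariate (0.643%) and to 13 in a fit to only the libraries compared (18.2%). That for Pole4+/+ Trp53+/- against Pole4+/+ Trp53+/+ went from 2 (0.904%) to 0 with the Xist covariate (0.331%) and to 6 with DESeq2 (2.9%). A fit to only the libraries compared gave 1 in place of 6 for Pole4+/+ Trp53-/- against Pole4+/+ Trp53+/+ (0.616% in place of 4.6%) and 6 in place of 0 for Pole4-/- Trp53+/+ against Pole4+/+ Trp53+/+ (24.1% in place of 3.98%). The interaction, at 0, gave 1 with median-of-ratios size factors (1.6%) and 2 with DESeq2 (12.8%), against 0.331%. In each of these the share of all genes moved the same way as the Hox count.

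With the replicate number as a block, the interaction gave 1 call (Hoxd8), beside 3.49% of all genes. The block moved no other count by more than 1.5 times, and the labels do not say that a number links cultures across genotypes. Removing the mean of each number, a choice made after seeing the data, took the correlation of Hoxa13 and Hoxd13 from 0.886 to 0.809, outside its range with single libraries left out, and that of Hoxa11 and Hoxd11 from 0.689 to 0.696.

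With any single library dropped, 12 to 23 calls were made for any difference among genotypes (17.9% to 42.9% of all genes), 19 to 24 for Pole4-/- Trp53-/- against Pole4-/- Trp53+/+ (31.5% to 37.3%), 2 to 19 for Pole4+/+ Trp53-/- against Pole4+/+ Trp53+/+ (2.01% to 16.9%), 0 to 4 for Pole4-/- Trp53+/- against Pole4-/- Trp53+/+ (0.105% to 3.45%), 0 to 2 for Pole4+/+ Trp53+/- against Pole4+/+ Trp53+/+ (0.105% to 0.622%) and 0 to 5 for the interaction (0% to 20.1%). The 3 Pole4 comparisons stayed at 0 (0% to 4.93%). Of the 2 relations called, 1 was left with Spearman's rho, 1 without the 2 libraries farthest from the median and 1 to 2 with single libraries left out. Depth limits the low members most: Hoxd3, Hoxd4, Hoxd9, Hoxd12, Hoxc11 and Hoxc13 had libraries with 4 or fewer counts.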

Other observations

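In the distal paralogs, the 3 libraries of Pole4+/+ Trp53-/- divided in the opposite way from most low and middle paralogs. Library 1 was the lowest of the 3 for all 10 tested genes of groups 10 to 13, and the values of HoxC are given here. Hoxc10 stood at 3.79 CPM in library 1 against 6.01 and 5.34 CPM in libraries 2 and 3, Hoxc11 at 0.446 against 1.47 and 1.37 CPM, and Hoxc13 at 0.0558 against 0.931 and 0.808 CPM. Hoxc12, which did not pass the filter on low counts, stood at 0.0558 against 0.504 and 0.404 CPM, or 2, 13 and 5 counts. Hoxd1 also did not pass, and its highest level of any library, 0.223 CPM or 8 counts, was in that same library 1. These genes were picked after their values were seen, and no test was run on them.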
